A study of Mus musculus with 8 samples.

Results

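A large cluster of transfer RNA (tRNA) genes lies on mouse chromosome 13, in the same interval as many histone genes. The members are the tRNA genes of the RefSeq annotation on the mm10 build, with symbols starting n-T, that lie on chromosome 13 between 20 and 24 Mb. There are 104 of them among 403 tRNA genes on the main chromosomes, which leaves 299 elsewhere. A symbol gives the amino acid in 1-letter code and then the anticodon, so n-TLcag10 is a leucine gene with anticodon CAG. The symbol does not separate initiator from elongator methionine genes.

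The data are ChIP-seq peak lists, in which DNA crosslinked to a protein is immunoprecipitated and sequenced. The cells were primary neural progenitor cells grown from the hippocampus of male C57BL/6 mice and cultured in DMEM with B27; the labels name no genotype or treatment. There were 3 proteins with 2 replicates each. Polr1c is a subunit that RNA polymerases I and III have in common. Mgea5 is the O-GlcNAcase, which removes O-linked N-acetylglucosamine from proteins and whose gene is now called Oga. Panx2 belongs to the pannexins, a family of membrane channels. The 6 ChIP libraries and 2 input libraries make up the 8 samples. The labels do not say whether the replicates were separate cultures or animals, and differences between them may be technical. Peaks record where a protein was found on DNA and not RNA levels, so the labelled cell type could not be checked against marker genes.

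RNA polymerase III transcribes tRNA genes from promoters that lie inside the gene, the A box and the B box. TFIIIC binds these boxes and brings in TFIIIB, which binds just upstream of the gene and recruits the polymerase, and transcription ends at a run of T downstream. Genomes carry many near-identical copies of each tRNA gene, and only some copies are occupied by the polymerase in a given cell type.

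The annotated letters of 3 members are shown because they let the internal promoter of a tRNA gene be seen. These members lie whole inside another gene's promoter window or a microRNA hairpin and were not picked for their Polr1c values. The letters come from RefSeq tables of GRCm38.p6. The first is the promoter window of the non-coding gene Gm32420 (chr13:21222490-21222789, minus strand), which holds n-TAagc16. The second is that of Gm46404 (chr13:23445922-23446221, minus strand), which holds n-TVcac9. The third is the hairpin of the microRNA gene Mir1983 (chr13:21896918-21897049, minus strand, 132 bases), which holds the whole of n-TItat14. The fourth is its mature product (chr13:21896930-21896950). Capitals mark the tRNA gene in the first 3 lines and the seed, bases 2 to 8, in the last.
n-TAagc16 in the Gm32420 window: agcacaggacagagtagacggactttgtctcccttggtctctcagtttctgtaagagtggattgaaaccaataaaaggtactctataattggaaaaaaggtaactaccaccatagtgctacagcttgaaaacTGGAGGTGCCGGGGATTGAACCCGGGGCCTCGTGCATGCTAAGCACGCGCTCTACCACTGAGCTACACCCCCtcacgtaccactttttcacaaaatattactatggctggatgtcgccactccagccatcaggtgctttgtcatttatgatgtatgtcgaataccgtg
n-TVcac9 in the Gm46404 window: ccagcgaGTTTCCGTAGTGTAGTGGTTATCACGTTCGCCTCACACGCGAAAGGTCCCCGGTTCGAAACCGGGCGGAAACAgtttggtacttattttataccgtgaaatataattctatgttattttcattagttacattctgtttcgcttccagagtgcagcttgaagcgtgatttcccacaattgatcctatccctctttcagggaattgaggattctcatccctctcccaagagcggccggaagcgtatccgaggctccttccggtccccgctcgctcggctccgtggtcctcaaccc
n-TItat14 in the Mir1983 hairpin: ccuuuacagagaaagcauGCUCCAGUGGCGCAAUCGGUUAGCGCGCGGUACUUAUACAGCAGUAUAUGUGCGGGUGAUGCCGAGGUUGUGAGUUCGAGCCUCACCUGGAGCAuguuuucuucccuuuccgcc
mmu-miR-1983: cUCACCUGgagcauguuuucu

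The core of the B box was searched as GTTCNANNC and the A box by its usual consensus, on both strands, with motifs chosen after these sequences had been seen. In n-TAagc16 the B box core started at base 52 and the A box at base 8 of the gene, on the strand opposite to the printed one. In n-TVcac9 they started at base 53 and base 8 of the gene as printed, and in n-TItat14 at base 74 and base 8. The later B box of n-TItat14 goes with its length of 94 bp, against 72 and 73 bp for the other 2 genes. Of the 32851 promoter windows in the table, 9.32% held the B box core, 22.4% the A box and 1.25% both on 1 strand. Of the 21 bases of the mature microRNA, 13 lie inside the tRNA gene and the rest run past its end into a stretch rich in U. Polr1c peaks were listed at n-TAagc16 in replicate 2 only, and at neither n-TVcac9 nor n-TItat14.

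The 104 genes fall into 2 groups along the chromosome. The lower group holds 59 genes between 21160785 and 22050767, a span of 890 kb, and the upper group 45 genes between 23270421 and 23530419, a span of 260.0 kb. A gap of 1219653 bp separates them, and the median distance between neighbouring members was 3042 bp. The members carry 17 amino acids and 35 of the 49 annotated combinations of amino acid letter and anticodon. The 49 hold GCA under C and also under a lower-case c, the latter with 1 gene. No member is a cysteine, histidine or asparagine gene, although 56, 11 and 13 such genes lie elsewhere. The interval also holds 54 histone genes, the replication-dependent genes whose products package DNA. The median distance of a member to the nearest of them was 94053 bp, and 4 members lay within 5 kb.

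A member was counted as having a peak when at least 1 bp of a listed peak fell in the gene or in 200 bp on either side. The fold of a peak is the authors' value for ChIP over background, and the highest fold over a member is given. The q is the authors' too. Both were used only to describe and rank peaks within a list. The 2 Polr1c lists held 785 and 35727 peaks, those of Mgea5 536399 and 520997, and those of Panx2 145209 and 478180, so counts do not compare the proteins. Read depth is unknown here, and no test was made on any count.

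Polr1c peaks were listed at 29 members in replicate 1 and at 38 in replicate 2. Among 4134 other annotated genes of at most 150 bp, the background of these counts, the shares were 0.29% and 2.69%, against 27.9% and 36.5% of the members. Both replicates had a peak at 23 members, 22.1%, against 0.266% of the other short genes. At a q of at most 0.01 in both replicates 13 members were left, 12.5%, against 0.121%. Either list had a peak at 44 members and neither at 60. The 23 shared members are 79.3% of those in replicate 1 and 60.5% of those in replicate 2.

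The other tRNA genes of the genome had Polr1c peaks at 35.5% and 41.8%, and in both lists at 84 of 299, 28.1%. The chromosome 13 genes thus had lower shares in each list, and no test of that difference was made. The median fold over members with a peak was 5.37 in replicate 1, with a range of 2.47 to 8.27, and 3.64 in replicate 2, with a range of 1.80 to 5.67. Elsewhere the medians were 5.66 and 3.37 and the highest folds 10.6 and 6.53. The interval was also cut into 8271 tiles of 473 bp away from the members, and a Polr1c peak touched 0.0242% of these tiles in replicate 1, 0.895% in replicate 2 and none in both.

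**Figure D1:**
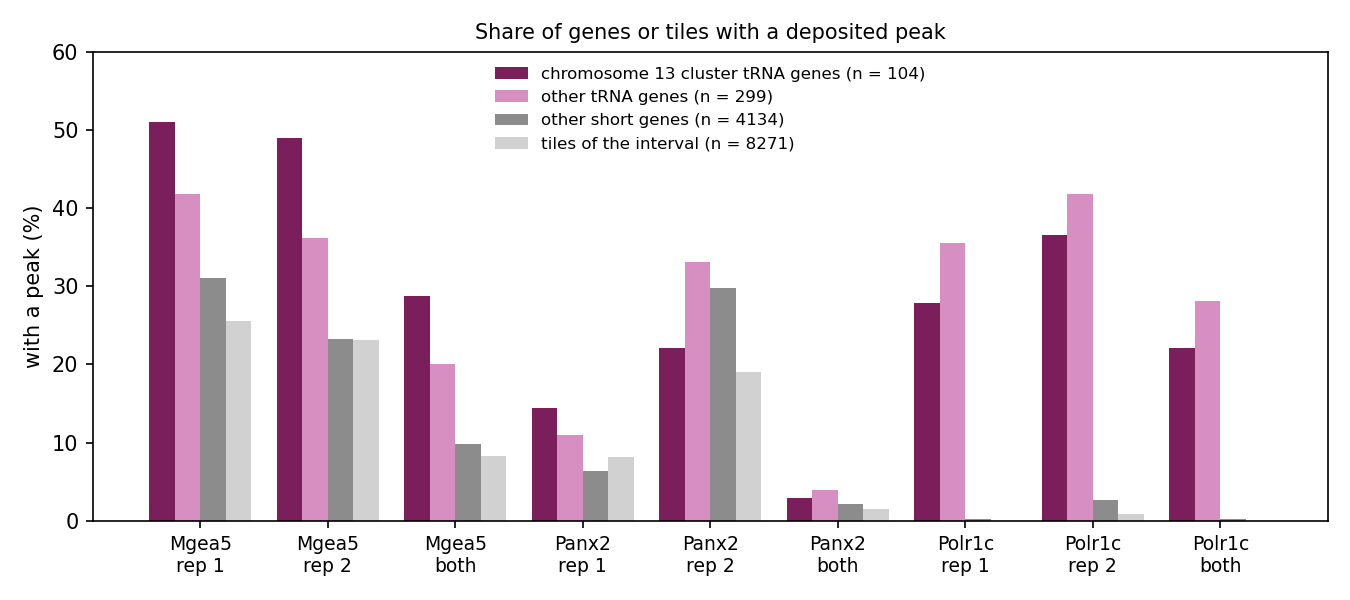
Share in percent (y axis) of the chromosome 13 cluster tRNA genes, other tRNA genes, other genes of at most 150 bp and tiles of the interval that had a peak in each list and in both lists of a protein (x axis). For Polr1c, 27.9% and 36.5% of the cluster genes had a peak, against 0.29% and 2.69% of other short genes.

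The Polr1c peaks of the interval lay mostly on tRNA genes in replicate 1. Of 25 peaks there, 24 touched a member or its 200 bp flank, 96%. The remaining one had a fold of 2.76 and lay at 23601519 to 23601801 over the histone gene H2bc6 and the non-coding gene Gm33387. In replicate 2, 35 of 89 peaks touched a member, 39.3%, and their median fold was 3.64 against 2.75 for the other 54. At a q of at most 0.01, 16 of 16 peaks in replicate 1 and 20 of 22 in replicate 2 touched a member. The other 2 lay at 20697647 to 20697928, with no annotated gene and a fold of 4.29, and at 21754124 to 21754495 over the histone gene H2bc15, with a fold of 3.73.

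The summits, the highest points of the peaks as deposited, lay on the genes. In replicate 1, 18 of 24 summits fell inside a tRNA gene, 75%, and 23 within 100 bp of one. In replicate 2, 27 of 35 fell inside, 77.1%, and 34 within 100 bp. The median distance of a summit from the centre of the nearest gene was 20 bp in replicate 1 and 17.5 bp in replicate 2. The median peak width was 322 bp and 184 bp, so most peaks were wider than the gene they sat on. At the 23 members with peaks in both lists, the summits of both replicates were within 50 bp of each other at 16 and within 100 bp at 19, with a median shift of 17 bp. The largest shift, 479 bp, was at n-TGgcc6, where the replicate 1 peak spans a neighbouring gene as well.

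**Figure D2:**
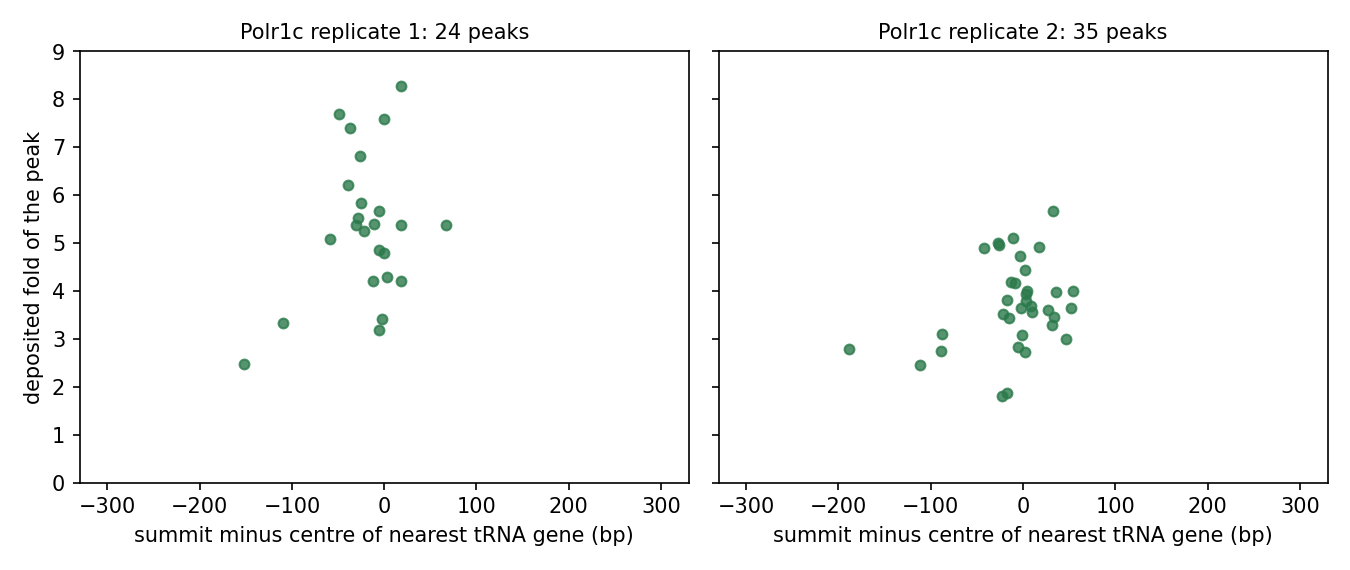
Distance in bp from the centre of the nearest tRNA gene to the summit of each Polr1c peak at the cluster (x axis) against the deposited fold of the peak (y axis), 1 panel for each replicate, 1 point for each of 24 and 35 peaks. Most points sit close to 0, with median distances of 20 and 17.5 bp.

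The gene with the highest Polr1c folds was n-TLcag10 (23453432 to 23453514), a leucine gene between annotated genes in the upper group. Its fold was 8.27 in replicate 1 (q = 2.76e-10) and 5.67 in replicate 2 (q = 4.34e-09), ranks 42 and 156 by fold in their lists. These were the highest values over any member in both lists. It carried Mgea5 peaks too, with folds of 2.0 and 1.75, and a Panx2 peak of 1.60 in replicate 2 alone.

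Glycine and methionine genes came next, and they lie as neighbouring pairs in both groups. In the lower group n-TGgcc7 (21710580 to 21710650) and n-TMcat7 (21710994 to 21711065) are 344 bp apart and share 1 replicate 1 peak, at 21710466 to 21711203, with a fold of 7.70. In replicate 2 each had its own peak, of 4.43 at n-TGgcc7 and 4.17 at n-TMcat7. In the upper group n-TGgcc6 (23517203 to 23517273) and n-TMcat6 (23517692 to 23517763) have the same order of anticodons, 419 bp apart. They too share 1 replicate 1 peak, with a fold of 5.25, and had separate replicate 2 peaks of 5.12 at n-TGgcc6 and 1.80 at n-TMcat6. The last value had a q of 1.00, so in replicate 2 the n-TMcat6 peak was among the weakest listed. Both pairs had Mgea5 peaks in both replicates and a Panx2 peak in replicate 1, with Panx2 folds of 2.12 and 2.07. The glycine genes are the only 2 of that amino acid in the cluster.

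The first member along the chromosome, n-TEctc11 (21160785 to 21160856), is the only glutamate gene with anticodon CTC here. Its folds were 7.60 in replicate 1 (q = 4.18e-11) and 4.0 in replicate 2. The replicate 1 peak reached the phenylalanine gene n-TFgaa4, 549 bp away, but its summit lay in n-TEctc11, and n-TFgaa4 had no peak in replicate 2. Genes that share 1 peak therefore cannot be told apart. With the 200 bp flanks, 10 members shared 5 replicate 1 peaks and 5 members shared 2 replicate 2 peaks. Some were touched in the flank alone, n-TLaag7 and n-TAagc10 in replicate 1 and n-TLaag5 and n-TAagc7 in replicate 2. On the gene body alone, 27 and 36 members had a Polr1c peak.

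Among genes without a neighbour under the same peak, the threonine gene n-TTagt4 (21856021 to 21856094) had folds of 5.84 and 4.96, with summits at 21856032 and 21856031. The methionine gene n-TMcat9 (23530348 to 23530419), the last member along the chromosome, had 4.85 and 4.93. The arginine gene n-TRacg1 (22021144 to 22021216) had 5.40 and 4.19. At other members of high rank the replicates lay further apart. The leucine gene n-TLcaa1 (21200204 to 21200308), of intron-bearing length, had 7.40 in replicate 1 but 3.08 in replicate 2 (q = 0.0174). The lysine gene n-TKctt28 (21168075 to 21168147) had 6.21 and 3.52.

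The other amino acids were led by genes of lower fold. The alanine gene n-TAagc13 had 4.79 and 3.64, and the serine gene n-TSaga8 had 5.37 and 3.95. The isoleucine gene n-TIaat8 had 4.29 and 4.73, and the aspartate gene n-TDgtc12 had 4.21 and 4.0. The proline gene n-TPagg3, the only one of that amino acid in the cluster, had 3.19 and 3.11, neither at a q of at most 0.01. For valine the highest replicate 2 fold was 3.98 at n-TVaac3, and for tyrosine 3.46 at n-TYgta7, both without a replicate 1 peak.

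**Figure D3:**
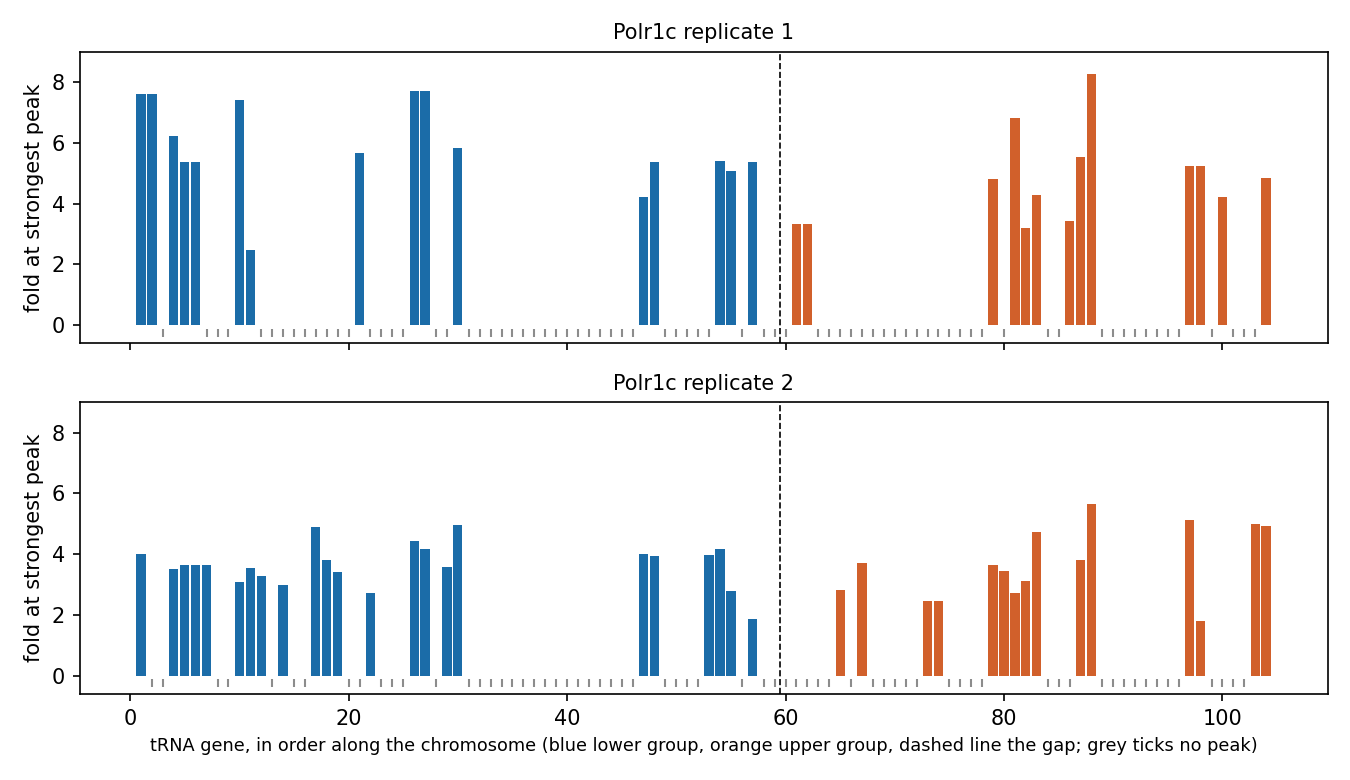
Deposited Polr1c fold at the strongest peak (y axis) for each of the 104 tRNA genes in order along the chromosome (x axis), replicate 1 above and replicate 2 below; blue bars are the 59 genes of the lower group, orange bars the 45 of the upper group, the dashed line marks the gap and grey ticks genes without a peak. The highest bar in both panels is n-TLcag10, with 8.27 and 5.67, and 16 neighbouring genes of the lower group have no bar in either panel.

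The order of folds differed between replicates. Over the 23 members in both lists the Spearman coefficient of the folds was 0.21, a description with no p, since neighbouring genes share peaks. Replicate 1 was higher at 20 of the 23, with medians of 5.37 and 3.82, and the lists came from different calling runs by their peak names. Peaks in replicate 1 alone were listed at 6 members, with n-TFgaa4 at 7.60, n-TTtgt4 at 5.66, n-TQttg4 at 4.21, n-TRacg5 at 3.41, and n-TVaac4 and n-TAagc10 sharing 1 peak of 3.34. Peaks in replicate 2 alone were listed at 15 members, the strongest being n-TRtcg1 at 5.00 and n-TAcgc9 at 4.89. In replicate 1 equal folds recurred: the 24 peaks had 21 different values, and 5.37 was the fold of 3 separate peaks. In replicate 2 all 35 values differed.

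**Figure D4:**
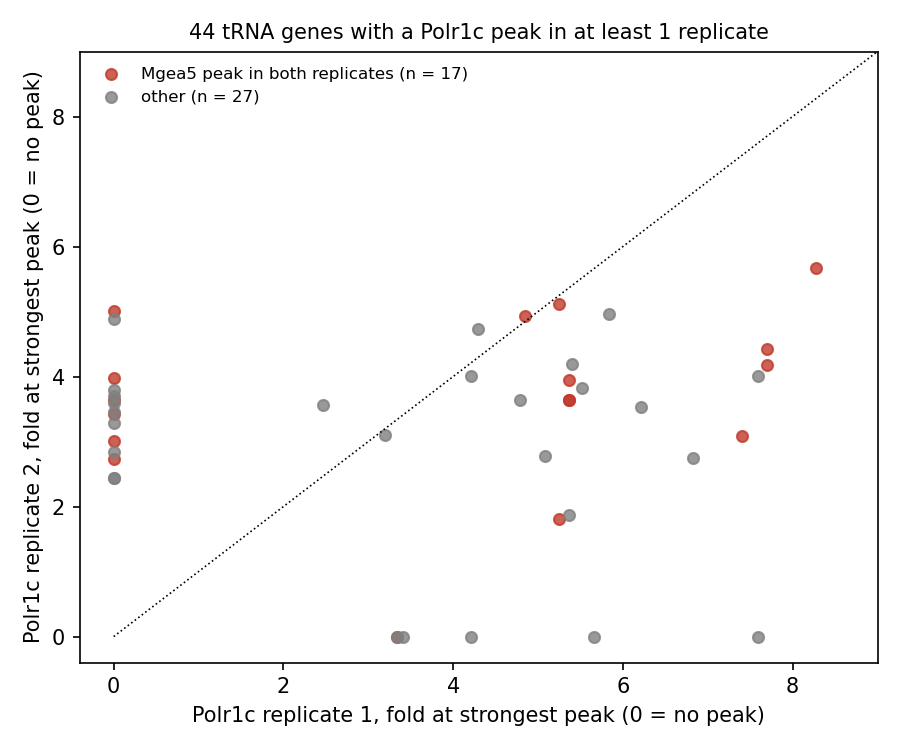
Polr1c fold at the strongest peak in replicate 1 (x axis) against replicate 2 (y axis) for the 44 tRNA genes with a Polr1c peak in at least 1 list; 0 means no peak, red points also had Mgea5 peaks in both replicates, and the dotted line marks equal folds. Of the 23 genes away from both axes, 20 lie below the line, and the cloud shows little order (Spearman 0.21).

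Runs of neighbouring genes with and without a listed Polr1c peak were counted, with no test of clustering. The longest run without a Polr1c peak in either list was 16 consecutive genes from n-TIaat10 to n-TSaga1, 21882033 to 21937175 and 55.1 kb long. In the same run Mgea5 peaks were listed at 8 genes in each replicate and Panx2 peaks at 1 and 4. These counts are near the shares over all members, which were 51% and 49% for Mgea5 and 14.4% and 22.1% for Panx2. Directly after it, n-TDgtc12 and n-TSaga8 had Polr1c peaks in both lists. The next longest were 8 genes from n-TEttc5 to n-TWcca4, spread over 43.1 kb, and 5 genes from n-TMcat12 to n-TVcac2. The longest run with Polr1c at every gene was 5 genes in 6.77 kb, from n-TAagc13 to n-TIaat8, of which 4 had peaks in both lists. In it n-TKctt11, a lysine gene, had folds of 6.82 and 2.74. Just before that run, 4 tyrosine genes from n-TYgta3 to n-TYgta6, within 3.18 kb, had no peak in any of the 6 lists.

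Close pairs of genes recur along the cluster. Alanine AGC and valine AAC genes form 4 close pairs of 176 to 235 bp spacing in the upper group. The pair of n-TVaac4 and n-TAagc10 had a Polr1c peak in replicate 1 alone, with a fold of 3.34, and that of n-TAagc7 and n-TVaac5 in replicate 2 alone, with 2.45. The pair of n-TVaac6 and n-TAagc11 and the pair of n-TAagc12 and n-TVaac2 had none. The glycine and methionine pairs had Polr1c in both replicates in both groups.

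By amino acid, genes with Polr1c in both lists were spread over 12 amino acids and 16 anticodons. Over all members the share was 22.1%, and the numbers for each amino acid are small. Methionine had 4 of 11 and leucine 3 of 7, against 1 of 5 and 6 of 18 elsewhere. The methionine gene n-TMcat15 and the leucine gene n-TLaag7 were counted through the same Polr1c peak in each list. In replicate 1 that peak ended at 21170000, short of n-TLaag7 (21170036 to 21170117), and reached only its 200 bp flank. The summits of the peaks in both lists are nearest to n-TMcat15. Serine had 2 of 12, while isoleucine and arginine had 2 of 8 each, threonine 2 of 7 and lysine 2 of 4. Alanine had 1 of 12 and aspartate 1 of 3. Both glycine genes and the proline gene were in this class, and 1 of 2 glutamate genes. Valine, with 10 genes, glutamine with 7, tyrosine with 6, and phenylalanine and tryptophan with 2 each had none. Elsewhere serine had 5 of 10, valine 2 of 12, phenylalanine 2 of 5 and tryptophan 0 of 6.

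Counts in the cluster also differed between anticodons of an amino acid, on few genes each. For lysine, both CTT genes had Polr1c in both lists, and neither TTT gene did. The replicate 2 peak of n-TKctt11, a CTT gene, had a q of 0.512 and a summit 53 bp outside the gene. Elsewhere 5 of 22 CTT genes had Polr1c in both lists, and no lysine TTT gene is annotated there for comparison. For serine, the CGA gene and 1 of 5 AGA genes had it, and none of 4 GCT or 2 TGA genes. Elsewhere 1 of 2 CGA, 2 of 2 AGA, 2 of 4 GCT and 0 of 1 TGA genes had it. The replicate 2 peak of n-TScga1, the CGA gene of the cluster, had a q of 0.465 and a summit 148 bp outside the gene. For methionine CAT the 4 genes with Polr1c in both lists stood beside 7 without a Polr1c peak in either list. Of the 35 anticodons, 27 had a gene with Polr1c in both lists here or elsewhere in the genome. For tyrosine, 3 of the 4 genes outside the cluster had Polr1c in both lists, against 0 of 6 inside, where n-TYgta7 had a peak in replicate 2 alone. Glutamine had none outside either, among 9 genes.

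**Figure D5:**
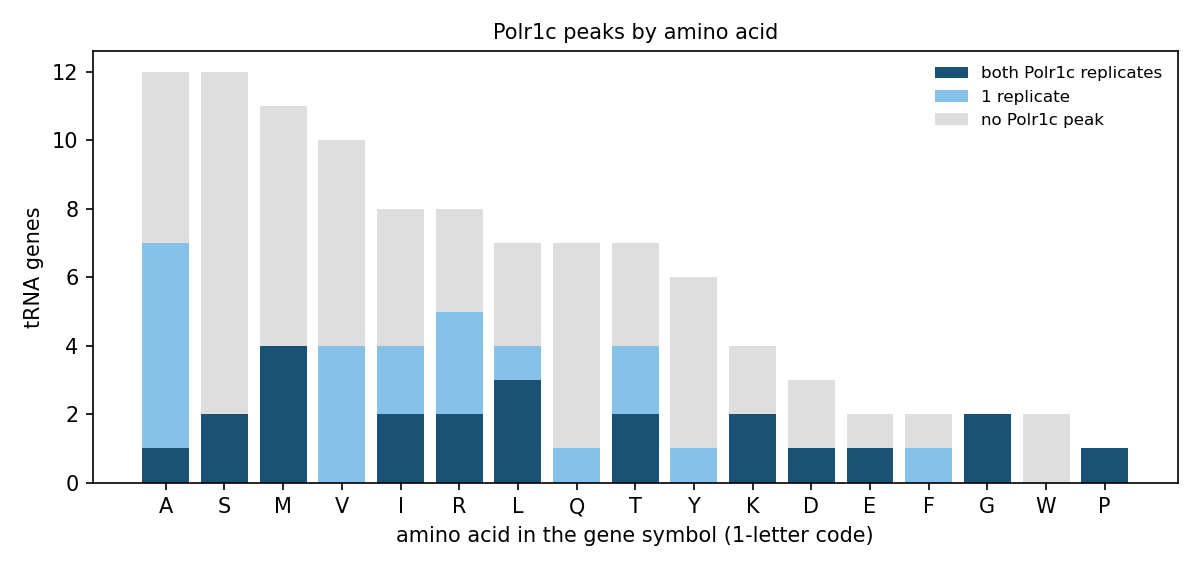
Number of cluster tRNA genes (y axis) by amino acid in 1-letter code (x axis), split into genes with a Polr1c peak in both replicates, in 1 replicate and in neither. Methionine has 4 genes with peaks in both replicates, while valine, glutamine, tyrosine, phenylalanine and tryptophan have none.

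Genes of 86 bp or more, a length class that takes in tRNA genes with an intron, had few Polr1c peaks in the cluster. Of 12 such members, 1 had peaks in both lists (n-TLcaa1) and 10 in neither, and n-TItat14 shown above is one of the 10. Among the 92 shorter members 22 had both. Elsewhere 6 of 9 genes of that length had both, and 78 of 290 shorter ones. The numbers are small, and 6 of the 12 are tyrosine genes.

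The counts were also set out by surroundings. Polr1c in both lists was found at 14 of 59 genes of the lower group, 23.7%, and 9 of 45 of the upper group, 20%. It was found at 7 of 25 members within 500 bp of another member and at 16 of the 79 further apart. Among 25 members that overlap another annotated gene, mostly long non-coding RNA genes such as Gm32298 and Gm32525, 5 had it, against 18 of 79 between genes. Of the 4 members within 5 kb of a histone gene, 2 had it (n-TMcat7 and n-TMcat9), against 7 of 26 at 5 to 50 kb and 14 of 74 further away. The histone genes of the interval had Polr1c peaks at 1 and 3 of 54, and at none in both lists.

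Mgea5 peaks were listed at 53 members in replicate 1, 51%, and at 51 in replicate 2, 49%. The shares of the other short genes were 31.1% and 23.2%, and those of other tRNA genes 41.8% and 36.1%. Both lists had a peak at 30 members, 28.8%, against 9.8% of the other short genes, 20.1% of other tRNA genes and 8.27% of the tiles. The folds were low, with medians of 1.70 and 1.68 and ranges of 1.48 to 2.0 and 1.45 to 2.22. No member had a q of at most 0.01, and the lowest, 0.172, was at n-TMcat9 in replicate 2. In replicate 1 the deposited −log10 q was 0 at 52 of the 53.

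The histone genes of the interval had the higher Mgea5 shares, 90.7% and 87%, and both lists at 42 of 54. Their windows are wider, since these genes are 375 to 37455 bp long with a median of 489 bp, against 71 to 106 bp for the members. Mgea5 in both replicates was found at 3 of the 4 members within 5 kb of a histone gene, at 10 of 26 at 5 to 50 kb and at 17 of 74 further away. The part of this distance in the Mgea5 counts was not tested. Among members in both lists, the geometric mean of the folds was highest at n-TMcat9, with folds of 1.83 and 2.07. Next came n-TRtcg1, with 1.70 and 2.20, and n-TQctg8, with 1.97 and 1.89. The highest fold of a single list was 2.0 at n-TLcag10 in replicate 1 and 2.22 at n-TRtcg3 in replicate 2. In both lists the broad peak at n-TMcat9 also covers the histone gene H4c8 and gives it the same folds, so the signal of the tRNA gene and that of H4c8 cannot be told apart. It was the only member whose Mgea5 peak lay over a histone gene as well, 1 in each list. By the geometric mean, n-TLcag10 and n-TQttg3, the latter with 1.98 and 1.63, followed n-TQctg8. The arginine gene n-TRtcg1 and n-TMcat9 lie next to each other, 4516 and 625 bp from the histone gene H4c8, and both overlap the non-coding gene Gm11335.

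Panx2 peaks were listed at 15 members in replicate 1, 14.4%, and 23 in replicate 2, 22.1%. The shares of other short genes were 6.36% and 29.8%, so the members lay above that background in one list and below it in the other. Other tRNA genes had 11% and 33.1%. By their peak names the Panx2 lists, like those of Polr1c, came from different calling runs. Only 3 members, 2.88%, were in both lists, against 2.15% of the other short genes: n-TMcat12 with folds of 2.11 and 2.43, n-TRtcg2 with 1.76 and 1.79, and n-TVcac4 with 1.81 and 1.62. This share is near the background, and that of other tRNA genes was 4.01%. The highest Panx2 fold was 3.11 at the glutamine gene n-TQctg8 in replicate 2 (q = 0.0535), beside no replicate 1 peak, and no member had a q of at most 0.01. The 3 shared members are 20% of those in replicate 1 and 13% of those in replicate 2.

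Of the 23 members with Polr1c in both replicates, 10 also had Mgea5 in both, 43.5%, and of the 60 members without Polr1c 13 did, 21.7%. The 10 are not all separate sites, and they became 8 when touching members were merged. Among them n-TMcat15 and n-TLaag7 lie under the same Mgea5 peaks in both lists. The same holds for n-TGgcc7 and n-TMcat7. The genes n-TGgcc6 and n-TMcat6 also share their Mgea5 peaks, but the replicate 1 peak reaches only the 200 bp flank of n-TGgcc6. The 10 became 0 at a q of at most 0.01, at a −log10 p of at least 5 and with 800 peaks a list. Each replicate alone gave 16 to 24. Mgea5 in at least 1 list was found at 20 of the 23, 87%, and 38 of the 60, 63.3%, against 71.2% of all members and 44.5% of the other short genes. For Mgea5 in both lists, the tRNA genes elsewhere gave 33.3% of 84 with Polr1c in both and 13.8% of 152 without it. Panx2 in both lists was found at none of the 23 and at 1 of the 60. No test was made of these differences, and libraries may share input controls. No member was in all 6 lists, and 7 were in 5 lists: n-TRtcg2, n-TGgcc7, n-TMcat7, n-TLcag10, n-TGgcc6, n-TMcat6 and n-TMcat9. Of these, n-TGgcc7 and n-TMcat7 share every peak except that of Polr1c replicate 2, as do n-TGgcc6 and n-TMcat6. At least 1 list had a peak at 88 members, 84.6%, against 80.9% of other tRNA genes, 58.1% of the other short genes and 53.7% of the tiles. The 16 with none included n-TMcat14, n-TTagt3, n-TIaat10, n-TMcat2 and n-TMcat10, the first 5 along the chromosome.

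The genes that encode the RNA polymerase III machinery were looked at for the same proteins, within 1000 bp of either end. The list has 25 genes: subunits of the polymerase, of TFIIIB and TFIIIC, the factor gene Gtf3a, the repressor Maf1 and the RNA-binding protein gene Ssb. Mgea5 peaks in both lists were found at 21 of the 25, against 64.3% of all 21887 protein-coding genes. Panx2 in both was found at 4, against 20.1%, and Polr1c in both at 1, against 0.521%. That gene was Polr1d, which encodes the partner of Polr1c in both polymerases, with Polr1c folds of 5.18 and 3.52. In the longer replicate 2 list 7 of the 25 had a Polr1c peak, against 17.5%.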

How the data were processed

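Peak lists of the 6 ChIP libraries were used, and the 2 input libraries were not used here. Per the submitters' processing notes, the tools were MACS3 3.0.0a5, Bowtie2 2.3.5 and Trim Galore, on mm10. The caller's control and cut-offs, read depth, and the handling of duplicates and of reads that map to several tRNA copies were not given in the sources used here, so which of several near-identical copies carries a peak is uncertain. Per peak the authors deposited a fold (a ratio), a −log10 p and a −log10 q. Mgea5 and Panx2 lists have the broad layout and Polr1c lists the narrow one with a summit.

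Gene positions were read from RefSeq's annotation of GRCm38.p6, which is mm10, and peaks on the 21 main chromosomes were overlapped with them in Python 3.11.15 (pandas 2.3.3). The overlap search was tested on simulated intervals. No p-value was computed, and the counts are descriptions.

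The members and lists were chosen with earlier results of these data known. Genes named by rule were the 10 members with the highest geometric mean Polr1c fold in both lists, the leading member of each amino acid (by the replicate 2 fold where none was in both), up to 5 for Mgea5 and for Panx2 in both lists, any with a Mgea5 or Panx2 q of at most 0.01 (none met it), and the first 5 without a peak. Other names, which mark runs, pairs and lists, the classes by length, and the motifs were chosen after values were seen. By symbol, 0 of 104 members matched the RefSeq promoter table, so the printed windows are those of overlapping genes. Alternatives were stricter p or q, other windows, full cover of the gene, lists of 800 peaks, merged neighbours and each replicate alone.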

Additional observations from a re-analysis of the deposited data

How the results depend on the processing

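The Polr1c count depended least on the settings. The 23 members with Polr1c in both replicates became 13 at a q of at most 0.01 and 12 with 800 peaks a list, and each replicate alone gave 29 to 38; the 84 other tRNA genes became 55 and 50. The replicate 2 count of 38 became 22 and 15. At a q of at most 0.01, at a −log10 p of at least 5 and with 800 peaks a list, the members with Mgea5 in both replicates fell to 0, as did those with Panx2, those with Polr1c and Mgea5, and the single Mgea5 and Panx2 lists, except for 1 member of Mgea5 replicate 2 with 800 peaks. Other tRNA genes with Mgea5 fell to 2, 0 and 2, and those with Panx2 to 0. When a peak had to cover the whole gene, members with Mgea5 in both fell from 30 to 15, other tRNA genes from 60 to 24, members with Panx2 from 3 to 0, others from 12 to 7, and members with Polr1c and Mgea5 from 10 to 6; the single lists gave 33 and 30 for Mgea5 and 14 for Panx2 replicate 2. With a window of 500 bp the numbers were 91 other tRNA genes with Mgea5, 5 members and 27 others with Panx2, and 17 and 1 members with Polr1c and Mgea5 or Panx2. On the gene body alone they were 37 others with Mgea5 and 1 member with Panx2. Either replicate alone gave 51 to 53 members with Mgea5, 108 to 125 others, 15 to 23 members with Panx2, 33 to 99 others, 16 to 24 members with Polr1c and Mgea5, and 5 to 6 with Polr1c and Panx2. A stricter setting leaves fewer peaks, and the cause of these changes was not tested. Merging members whose windows touch gave 93 loci and moved no count by more than 1.5 times. No paired analysis was possible because the results come from peak lists with no fit over samples. Read depth is unknown, and a gene without a peak was not shown to lack the protein.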
